A study of Homo sapiens with 1 sample.

Results

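A bidirectional promoter is the short stretch between the starts of 2 genes that lie on opposite strands and point away from each other. To ask how accessible such promoters were in renal carcinoma cells, pairs of protein-coding genes on chromosomes 1 to 22 were taken from the GENCODE annotation of hg38 where the transcription start sites (TSSs) of the canonical transcripts were at most 1000 bp apart. There were 957 such pairs. They held 1842 of the 19111 protein-coding genes on these chromosomes (9.64%). Since 139 pairs shared a gene or a TSS with another pair, the pairs formed 886 separate loci and held 1831 distinct TSSs. The median distance between the TSSs of a pair was 233 bp (interquartile range, 121 to 401 bp), and the pairs were compared with 16376 single promoters, which had no other protein-coding TSS within 1 kb. Which pairs met the rule followed from the annotation alone and from no measured value. The rule itself, and the gene lists and motifs used below, were chosen with earlier results of these data known.

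The library came from 786-O, an established cell line from a human renal carcinoma of the clear cell type. ATAC-seq was used, which maps open chromatin by the sites that the enzyme Tn5 can cut and tag. The cells carried an empty vector and no added DPF3a, the chromatin protein that the study overexpressed in other 786-O cells. The analysed data were the peak list of this 1 library, with no replicate and no second group. Promoters are not replicates of a condition, so no p-value is given, and the 95% intervals below cover counting error only.

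At many divergent promoters a single nucleosome-free region is thought to serve 2 core promoters, each read on its own strand. Such pairs are common in mammalian genomes and are rich in CpG dinucleotides. They are known for housekeeping genes, among them genes of DNA repair, of the mitochondrion and of the core histones, but the 2 genes of a pair need not be transcribed at the same level.

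The sequences of 6 pairs are shown to let the results below be read against them. Each is read from hg38 on the plus strand, 5′ to 3′, between the TSSs and outside annotated exons, so that the minus-strand gene starts to the left of it and the plus-strand gene to the right. Capitals mark the motifs searched, on either strand: AGCCAAT (a form of the CCAAT box bound by NFY), CCGGAAG (ETS), GGGGCGG (SP/KLF), CTACAATTC (ZNF143) and CACGTG (E-box). CCAAT with other flanking letters was not searched and stays in small letters. For TMEM60/PHTF2 the 121 bases centred on the summit are printed, and for the others the longest exon-free stretch. The first 3 are from pairs with the highest peaks. TMEM60/PHTF2 is at chr7:77798562-77798682, THAP5/DNAJB9 at chr7:108569751-108569866 and DOCK4/ZNF277 at chr7:112206408-112206694. SARS2/MRPS12 at chr19:38930764-38930943 is a textbook pair with 2 matches to AGCCAAT, beside CCAAT with other flanking letters. COL4A1/COL4A2 at chr13:110307158-110307257 and COL4A4/COL4A3 at chr2:227164206-227164395 are pairs of the same collagen family, the first with a peak and the second without.
TMEM60/PHTF2: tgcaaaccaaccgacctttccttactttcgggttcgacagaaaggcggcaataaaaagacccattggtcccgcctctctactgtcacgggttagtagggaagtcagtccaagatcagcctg
THAP5/DNAJB9: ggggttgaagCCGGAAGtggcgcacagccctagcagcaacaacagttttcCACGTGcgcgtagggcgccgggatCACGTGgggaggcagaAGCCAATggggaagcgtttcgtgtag
DOCK4/ZNF277: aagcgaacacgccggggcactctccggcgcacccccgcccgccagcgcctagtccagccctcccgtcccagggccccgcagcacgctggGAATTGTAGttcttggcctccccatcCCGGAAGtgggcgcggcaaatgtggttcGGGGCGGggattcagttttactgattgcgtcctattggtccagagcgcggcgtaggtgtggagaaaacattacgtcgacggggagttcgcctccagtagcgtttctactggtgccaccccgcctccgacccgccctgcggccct
SARS2/MRPS12: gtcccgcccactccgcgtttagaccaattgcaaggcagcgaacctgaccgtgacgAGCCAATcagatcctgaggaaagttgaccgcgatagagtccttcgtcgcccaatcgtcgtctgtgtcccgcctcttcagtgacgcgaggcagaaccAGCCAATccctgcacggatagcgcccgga
COL4A1/COL4A2: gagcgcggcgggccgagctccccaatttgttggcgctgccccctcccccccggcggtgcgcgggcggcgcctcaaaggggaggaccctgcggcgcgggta
COL4A4/COL4A3: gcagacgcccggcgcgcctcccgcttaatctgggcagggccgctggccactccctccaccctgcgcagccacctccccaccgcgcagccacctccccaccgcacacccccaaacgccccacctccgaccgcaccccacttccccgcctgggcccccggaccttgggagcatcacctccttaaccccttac

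The list held 88676 peaks, each with a summit, its point of highest read pileup. The numbering of the peaks has gaps, so peaks had been removed by a step that the sources used here do not give for ATAC-seq. For ChIP-seq the authors state a minimum peak score, and the lowest score in this list was 52. Whether the same step was used here is not known. A promoter called without a summit is thus one without a summit in this list. The strength of a peak was given by its deposited fold, the read pileup at the summit over that expected genome-wide. The median fold over all peaks was 10.8 at a pileup of 20, and 35.7% of all peaks had a pileup under 15. The label of the cells was checked at the promoters of marker genes. A summit within 1 kb of the TSS was found for 6 of 8 kidney and renal carcinoma markers, among them PAX8 at a fold of 31.9 and VIM at 47.9. CA9 had no summit. Over all protein-coding TSSs the share with a summit was 60.2%, so the count of 6 of 8 says little about the label. None of 5 markers of blood, endothelial, liver and neural cells had one (PTPRC, CD3E, PECAM1, ALB and NEUROD1).

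Nearly all pairs were accessible. A summit lay in the window from 1 kb left to 1 kb right of the pair at 886 of 957 pairs (92.6%; exact 95% interval, 90.7 to 94.2). This number equals the number of loci by coincidence. With the same 2-sided window of 1 kb for every TSS, 1686 of 1831 pair TSSs had a summit (92.1%; 90.7 to 93.3). The share was 55.9% for single TSSs (9156 of 16376; 55.1 to 56.7) and 60.2% for all protein-coding TSSs. The difference between pair and single TSSs was 36.2 percentage points (Newcombe 95% interval, 34.6 to 37.5). A higher share at the pairs was seen on 22 of 22 chromosomes.

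Single promoters that also had a divergent partner, but a non-coding one, stood between these groups. Of 1741 single TSSs with the TSS of a divergent long non-coding RNA (lncRNA) gene, 81.1% had a summit (79.2 to 82.9). That was 11.0 points below the pair TSSs (8.77 to 13.2) and 29.6 points above the 13557 single TSSs with no TSS of any other gene within 1 kb (27.5 to 31.5), of which 51.5% had a summit. Thus a divergent TSS of either kind went with a higher share. This was not particular to divergent TSSs. Of 893 genes with another protein-coding TSS within 1 kb but in no pair, 653 had a summit (73.1%; 70.1 to 76.0).

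The base composition of the promoters moved with these shares. GC content within 500 bp was alike, with a median of 62.3% at pair TSSs and 61.3% at single TSSs. CpG dinucleotides were not. The ratio of observed to expected CpG was 0.6 or more at 92.5% of the pair TSSs and at 63.5% of the single TSSs. Weighting the single promoters to the GC content of the pairs raised their share with a summit to 63.2%, and weighting them to the CpG ratio of the pairs, an alternative chosen after the data were seen, raised it to 72.5%. The pairs were higher within each of 7 GC bins and within each of 5 CpG bins. The gap was 34.9 points (19.7 to 50.1) at a CpG ratio under 0.4, where there were 38 pair TSSs, and 42.5 points (33.5 to 49.3) at 0.4 to 0.6. It was 20.3 points (17.2 to 22.9) at 0.6 to 0.75, 18.0 points (16.0 to 19.7) at 0.75 to 0.9 and 12.3 points (8.42 to 15.2) at 0.9 and over. CpG content and pairing were thus both tied to the share, and how far either sets it was not tested. The plot of the shares sets the 4 kinds of promoter beside the CpG bins.

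**Figure D1:**
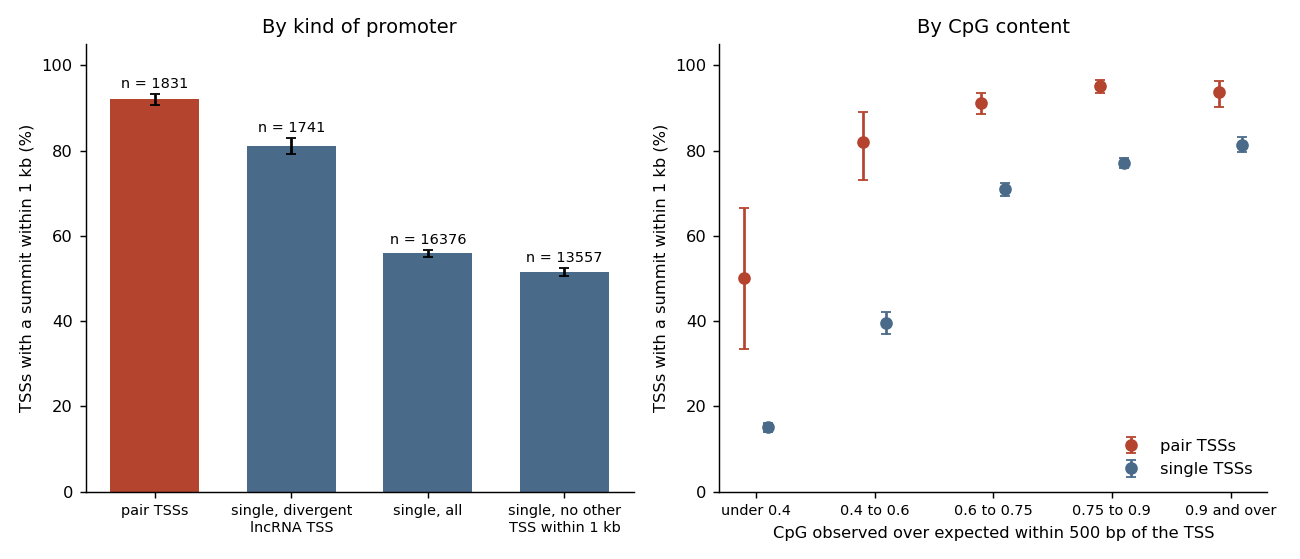
Percentage of TSSs with a summit within 1 kb (vertical axes), by kind of promoter (left, bars with the number of TSSs) and by the ratio of observed to expected CpG within 500 bp of the TSS (right, red for pair TSSs and blue for single TSSs); error bars are exact 95% intervals of counting error. Pair TSSs stood at 92.1% against 55.9% for all single TSSs, and the gap was 34.9 points at a CpG ratio under 0.4, 42.5 points at 0.4 to 0.6 and 12.3 points at 0.9 and over.

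Peaks at pairs were also stronger. The median of the highest fold over the 886 pairs with a summit was 31.4 (95% interval of the median, 29.9 to 33.0; range, 5.67 to 139.6). It was 31.9 at pair TSSs (30.4 to 32.5) and 23.7 at single TSSs (23.7 to 24.2), a ratio of 1.35. Single TSSs with a divergent lncRNA TSS had a median of 28.3 and those with no other TSS 22.7. The ratio was above 1 on 22 of 22 chromosomes, from 1.16 to 1.69. With the score minimum raised to 200 it was 1.17. Few pairs rested on shallow peaks. Only 8 pairs with a summit (0.903%) had a pileup under 15, and 361 (40.7%) were in the top 10% of all folds. All peaks include those away from promoters, and high folds were not particular to pairs. Of the TSSs with a summit, 60.5% of pair TSSs and 73.7% of single TSSs were at or below a fold of 36.1. The peaks at pair TSSs were wider as well, with a median of 1463 bp (1414 to 1500) compared with 1179.5 bp (1165 to 1197).

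The 5 highest folds were on chromosomes 7 and 8. TMEM60/PHTF2 had a fold of 139.6 (124 to 157, exact Poisson interval of the pileup), and its summit lay 188 bp from the TSS of TMEM60 and 170 bp from that of PHTF2. THAP5/DNAJB9 had a fold of 126 (111 to 143). DNAJB9 encodes a chaperone of the endoplasmic reticulum. NUDCD1/ENY2 had a fold of 124 (109 to 141), and ENY2 is a subunit of the SAGA transcription coactivator. DOCK4/ZNF277 followed at 116 (102 to 133) and SLC25A32/DCAF13 at 111 (96.5 to 127). The intervals of neighbours in this order overlapped. Of the 22 chromosomes, single promoters had their highest median fold on chromosome 7 (36.1) and pairs on chromosome 8 (45.3, compared with 26.8 at single TSSs there). Without chromosomes 5, 7 and 8 the ratio of medians was 1.33. Copy number was not measured here, and its part in these folds was not tested.

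**Figure D2:**
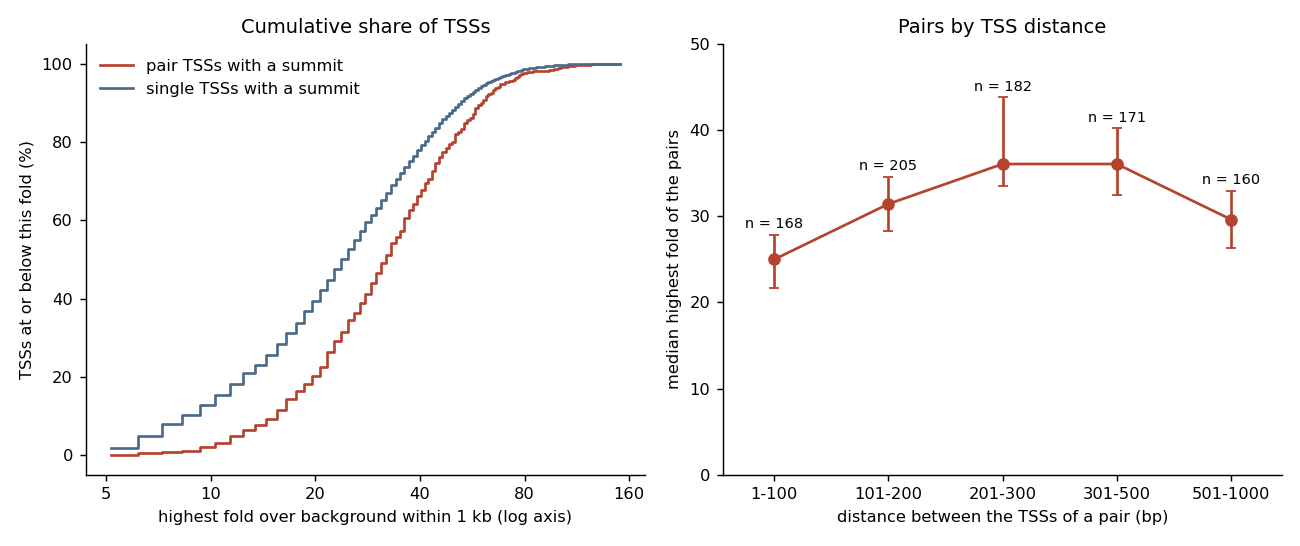
Left, the cumulative percentage of TSSs (vertical axis) at or below each highest fold over background (horizontal log axis) for pair TSSs in red and single TSSs in blue. Right, the median highest fold of the pairs in 5 bins of TSS distance, with 95% intervals of the median. The red curve runs to the right of the blue one up to the highest folds, and the median was 25.0 in the shortest bin and 36.1 in the bins of 201 to 300 bp and 301 to 500 bp.

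To see where in a pair the chromatin was most open, the highest summit was placed against the 2 TSSs. It lay between them at 542 of 886 pairs (61.2%; 57.9 to 64.4). It lay past the TSS of the minus-strand gene at 193 pairs (21.8%) and past that of the plus-strand gene at 151 (17.0%). Where it was past a TSS it was usually just past it, with a median of 57 bp, and 254 of these 344 pairs (73.8%) were within 100 bp. Seen from each gene, the summit was upstream of 80.4% of the pair TSSs (78.5 to 82.3), at a median of 120.5 bp upstream. At single TSSs it was upstream of 67.4% (66.5 to 68.4), at a median of 71 bp. TSSs with a divergent lncRNA were again between, with 75.7% and 111 bp. In a pair, a summit between the TSSs is upstream of both, and a summit past a TSS is upstream of the partner's. The upstream share of the pair TSSs thus restates the places given above. Single TSSs have no such layout, so the pair and single shares are not a like comparison.

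The place of the summit changed with the distance between the TSSs. It was between them at 17.3% of the pairs up to 100 bp apart, 51.7% at 101 to 200 bp and 85.2% at 201 to 300 bp. It was 78.4% at 301 to 500 bp and 73.8% at 501 to 1000 bp. A longer stretch is hit more often by itself, so single promoters were given a virtual partner upstream at the median distance of each bin, a comparison chosen after the data were seen. There the shares were 17.0%, 38.0%, 54.3%, 59.2% and 62.3%. In pairs up to 100 bp apart the share differed from this by 0.267 points, and the interval included 0 (−4.76 to 6.74). In the bin of 201 to 300 bp the pairs were 30.9 points higher (24.9 to 35.4), the widest gap of the 5 bins. A TSS distance of 201 to 300 bp thus went with the most central summits, which lay a median of 35.25 bp from the midpoint. The fold followed a like course. Its median was 25.0 (21.6 to 27.8) at 1 to 100 bp, 36.1 (33.5 to 43.8) at 201 to 300 bp and 29.6 (26.3 to 33.0) at 501 to 1000 bp. The share of pairs with a summit hardly moved, from 90.3% to 95.2% over the 5 bins, whose window grew with the distance.

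**Figure D3:**
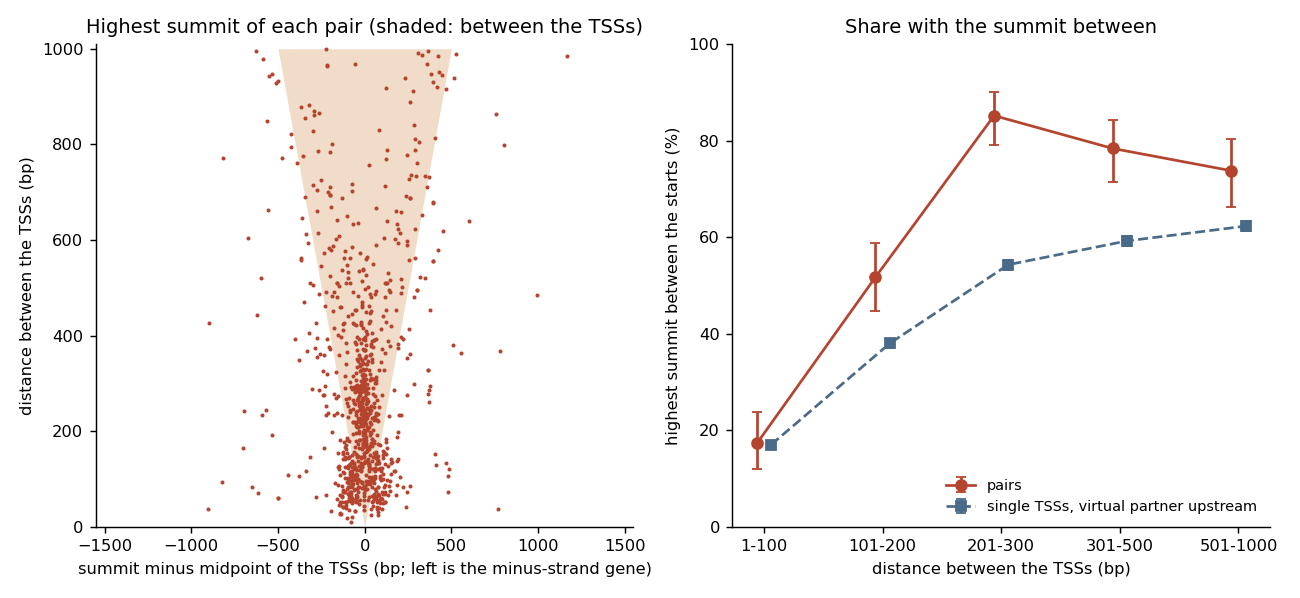
Left, each point is the highest summit of 1 of the 886 pairs, by its distance in bp from the midpoint of the TSSs (horizontal axis, the minus-strand gene to the left) and the distance between the TSSs in bp (vertical axis), with the region between the TSSs shaded. Right, the percentage with the highest summit between the starts in 5 bins of TSS distance, for pairs (red) and for single TSSs with a virtual partner upstream (blue), with exact 95% intervals. The shares were alike up to 100 bp and 85.2% against 54.3% at 201 to 300 bp. The virtual partner is a point without a protein-coding TSS.

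The pairs of shortest and longest distance are the ends of this range. MRM2/NUDT1 and a gene without a symbol (ENSG00000286192) paired with NUDT1 had TSSs 21 and 11 bp apart and shared 1 summit, of fold 21.6, inside the minus-strand genes. At CIR1/SCRN3, 18 bp apart, the fold was 17.5 and the summit was 95 bp inside CIR1. At the other end, HNRNPA2B1/CBX3 had TSSs 999 bp apart, and 1 peak of 2600 bp covered both, with a fold of 44.3 at a summit 276 bp from HNRNPA2B1. This pair of an RNA-binding protein and a heterochromatin protein is known for a CpG island over both starts. At PASK/PPP1R7, 995 bp apart, the summit lay between, 132 bp from PPP1R7, with a fold of 36.6. At SMIM7/TMEM38A, also 995 bp apart, it lay 130 bp inside SMIM7 with a fold of 20.6, and no peak covered both TSSs.

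Most pairs were 1 open interval with 1 summit. A single peak covered both TSSs at 853 of all 957 pairs (89.1%; 87.0 to 91.0), and it did so at 78.1% of the accessible pairs 501 to 1000 bp apart (70.9 to 84.3). At single promoters with a virtual partner at that distance the share was 29.5%, a difference of 48.6 points (41.6 to 54.4). That partner is a point without a protein-coding TSS, while a pair has a TSS at both ends. The difference is thus not a like comparison and can restate that a pair holds a second promoter. There were 2 or more summits at 62 pairs (6.48%; 5.00 to 8.23). This share was 0.522% among peaks with a score above 200 and 0.940% in a window of 500 bp. Around single TSSs 2 or more summits were more common, at 7.15% of those with a summit compared with 4.80% at pair TSSs, a difference of −2.35 points (−3.42 to −1.11). The second summit was low, 6.18-fold at the median and at most 17.5-fold, and it was 10 or more at 8 pairs. DCUN1D2/TMCO3 was the pair with 3 summits, of folds 39.7, 9.79 and 6.18. Each peak in the list has 1 summit, so a second summit is a second peak.

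Gene lists were used to see which functions the accessible pairs held. Several lists took genes by shared letters of their symbols, such as MRPL, RPS, ZNF, CEP or TTC, and can hold genes of other functions. The lists are read against the 92.6% of all pairs with a summit and their median fold of 31.4. They are also read beside the single genes of the same list. Genome maintenance genes were often paired, as 35 of 108 (32.4%) were in a pair, compared with 9.64% of all genes. A summit was found at 33 of these 35 pairs, with a median fold of 33.0, and at 68 of 70 single genes of the list (97.1%), with a median fold of 27.1. In this list the share was no higher at pairs (94.3%) than at single promoters. Among the highest folds were those at NPAT/ATM (68.0), MCM7/AP4M1 (64.9) and RAD1/BRIX1 (61.8). ATM is the kinase that signals DNA breaks, and NPAT is the coactivator of histone genes in S phase. The 2 without a summit, AK6/RAD17 and TAF9/RAD17, share RAD17 and lie in sequence with a second copy in hg38.

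For the mitochondrial ribosome, import and respiratory chain 63 of 64 pairs had a summit, with a median fold of 26.8, led by MRPL50/ZNF189 (108), NDUFA2/IK (64.4), ATP5MK/PDCD11 (60.8) and TCP1/MRPL18 (60.8). Single genes of that list had a summit at 89.1% and a median fold of 27.8. For translation it was 28 of 31 pairs and a median of 33.2, led by SERP1/EIF2A (73.7), HARS1/HARS2 (68.0), YARS1/S100PBP (68.0) and RPL7/RDH10 (60.3). HARS1 and HARS2 encode the cytosolic and the mitochondrial histidyl-tRNA synthetase. SNCB/EIF4E1B, TMEM234/EIF3I and VPS52/RPS18 had none. For TMEM234/EIF3I the nearest summit was 1394 bp away, outside the window, and VPS52/RPS18 lies in sequence with a second copy in hg38. Single genes of the translation list had a summit at 89.8% and a median fold of 28.9. For the centrosome and cilium list it was 23 of 25 pairs and a median of 40.7. The highest were MBD4/IFT122 (68.0), CEP290/TMTC3 (67.0), TTC13/ARV1 (62.3) and FAM76B/CEP57 (60.8). TTC13/ARV1 is in this list by the letters TTC alone. CEP170/SDCCAG8 and DYNLT2/ERMARD, both in sequence with a second copy, had none. Single genes of this list had a summit at 88.2% and a median fold of 36.6.

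All 32 pairs with a zinc finger gene had a summit (exact lower bound, 89.1%), with a median fold of 28.6, whereas 79.3% of the single zinc finger genes did, with a median of 20.6. DOCK4/ZNF277 (116), MRPL50/ZNF189 (108), CGGBP1/ZNF654 (59.3) and ZNF558/MBD3L1 (53.6) led them. The replication-dependent histones, transcribed in S phase, had 11 of 14 pairs with a summit (78.6%; 49.2 to 95.3) and a low median fold of 16.5. The single histone genes were lower still, with 60.4% and 11.9. H2BC11/H2AC11 (33.0), H2AC15/H2BC15 (30.4), H2AC17/H2BC17 (23.7) and H2BC12/H2AC12 (23.2) led the histone pairs. H2AC1/H2BC1, H2AC25/H2BC26 and H2BC21/H2AC20 had no summit. Histone genes have near-identical copies, and reads of low mapping quality had been removed, so their values are uncertain.

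Among 16 textbook divergent pairs 14 had a summit, with a median fold of 47.7. PDCD10/SERPINI1, 829 bp apart, reached 107 (92.7 to 122). HSPD1/HSPE1, the pair of the mitochondrial chaperonin HSP60 and its cochaperonin HSP10, reached 96.9 (83.6 to 112), and a readthrough gene gave the same peak a second entry in the list. The DNA repair pairs PRKDC/MCM4 at 54.1 and CHEK2/HSCB at 39.2 were below NPAT/ATM at 68.0. The purine synthesis genes GART and PPAT were both in accessible pairs, GART/SON at 47.9 and PPAT/PAICS at 46.4, and TK1/AFMID was at 47.4. Lower folds were found at SARS2/MRPS12 with 26.8 (20.1 to 35.1), SURF1/SURF2 at 14.9 and COL4A1/COL4A2 at 12.9 (8.44 to 18.9). The pairs without a summit were COL4A4/COL4A3 and TAP1/PSMB9, the latter in the second-copy sequence of chromosome 6.

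The collagen IV pairs share a layout of 2 chains of the same protein family. COL4A1 and COL4A2 encode the chains of nearly all basement membranes, and COL4A3 and COL4A4 those of the mature glomerular basement membrane. Both are GC-rich, with 73.3% GC around COL4A1/COL4A2 and 73.4% around COL4A4/COL4A3. At COL4A1/COL4A2, with TSSs 127 bp apart, the summit lay between, 86 bp from COL4A1. At COL4A4/COL4A3, 419 bp apart and with a CpG ratio of 0.751, the nearest summit was 56836 bp away. None of the motifs as searched was in either stretch, though that of COL4A1/COL4A2 holds CCAAT with other flanking letters.

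All 5 pairs with a kidney cancer driver or a gene of the study had a summit, with folds from 12.4 to 33.0, compared with 34 of 36 single genes of that list and a median of 20.4. BRD9/TRIP13 had 33.0 (25.5 to 42.0) at a summit 54 bp inside BRD9, a subunit of a SWI/SNF complex. NTHL1/TSC2 had 27.8 (21.0 to 36.2) at a summit 4 bp from the TSS of NTHL1. BAP1/PHF7, a tumour suppressor of renal carcinoma with a neighbour 652 bp away, had 24.2 (17.9 to 32.1) at 5 bp inside PHF7 and a second summit of 5.15. PBRM1/GNL3 had the lowest value, 12.4 (8.03 to 18.3). PBRM1 encodes a SWI/SNF subunit often lost in clear cell renal carcinoma. The intervals of the other 3 pairs described overlapped one another, and that of BAP1/PHF7 also overlapped that of PBRM1/GNL3, and no test of these differences was run. The plot of folds by gene list shows the spread within each list.

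**Figure D4:**
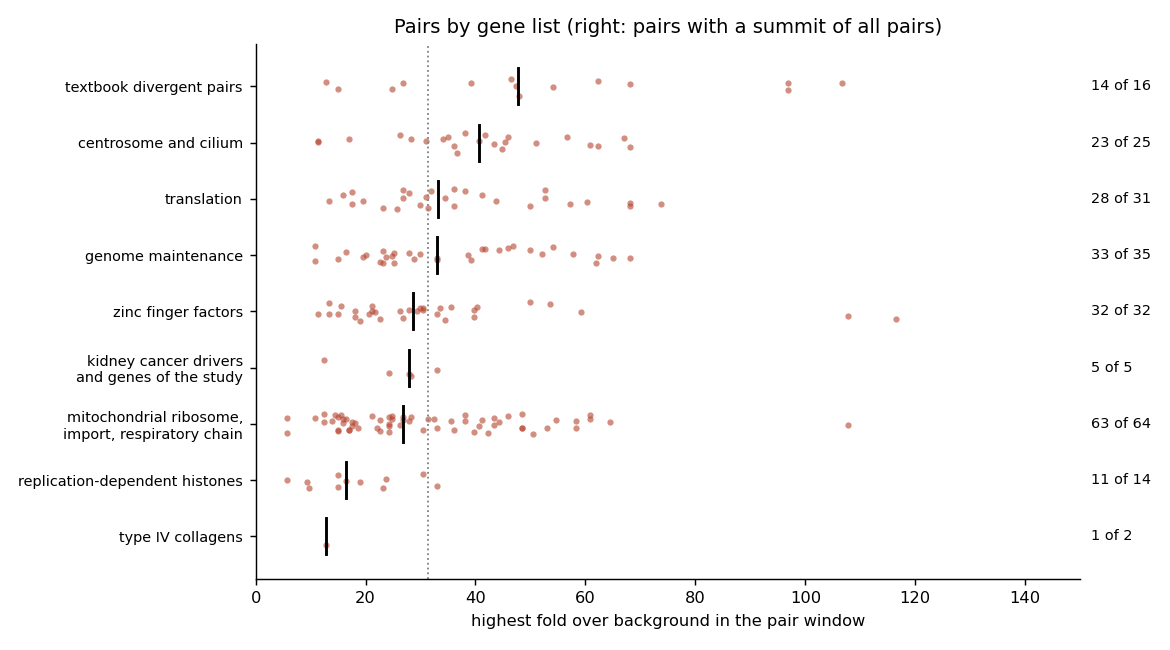
Highest fold over background in the pair window (horizontal axis) of each pair with a summit, in 9 gene lists (rows, ordered by median); black bars are medians, the dotted line is the median of all 886 pairs (31.4), vertical scatter within a row has no meaning, and the numbers at the right are pairs with a summit of all pairs. The histone pairs lie mostly below the line with a median of 16.5 and the centrosome and cilium pairs mostly above it with 40.7.

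The 71 pairs without a summit fell into 2 kinds. In 28 of them the promoter lay in primary sequence that has a second copy among the alternative sequences of hg38, 13 of these on chromosome 6. No pair in such sequence had a summit (0 of 28, exact upper bound of the share, 12.3%), and of 675 single promoters there 4 had one (0.593%). Ubiquitously transcribed genes such as GNL1, RPS18 and PFDN6 are among these pairs, as is PATL2/B2M. Reads with a low mapping quality had been removed, and its part in these values was not tested. Outside such sequence 886 of 929 pairs (95.4%; 93.8 to 96.6) had a summit. The gap between pair and single TSSs there was 36.5 points (35.2 to 37.8).

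The other 43 pairs without a summit were not AT-rich, with a median GC content of 64.7%, and 30 of them had a CpG ratio of 0.6 or more. For 13 the nearest summit was within 2 kb, just outside the window, as at TRADD/FBXL8 (1054 bp) and COQ8B/ITPKC (1089 bp), and for 18 it was within 5 kb. For 20 it was over 10 kb away. Several of the latter are genes known from other tissues, such as ABCG5/ABCG8, the sterol transporter of liver and intestine, PRAC1/PRAC2, known from prostate and colon, and SMC1B/RIBC2, with the cohesin subunit of meiosis. DUOX2/DUOXA2 and DUOXA1/DUOX1, oxidases of thyroid and airway with their maturation factors, and FOXL2/FOXL2NB of the ovary were also without a summit. These names were chosen after their values were seen. BOLA2/SLX1B and SRGAP2B/FAM72D have near-identical copies in the genome, and their values are uncertain for that reason.

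The sequence at the summits was compared by 13 motifs and 2 scrambled controls, searched on both strands within 50 bp of the highest summit. The E-box and the hypoxia response element (TACGTG) share the letters ACGTG. For the CCAAT box only AGCCAAT was searched, so its other forms are not counted. There were 818 distinct peaks of pairs and 9140 of single promoters. The ETS motif was at 10.9% of the pair summits (8.83 to 13.2) and at 6.89% of the single summits (7.36% when weighted to the GC content of the pair summits), a difference of 3.99 points (1.96 to 6.36). Over all summits it was at 1.52%. The ZNF143 motif was at 5 pair summits (0.611%) compared with 0.153%, a difference of 0.458 points (0.0931 to 1.27). AP-1 (TGACTCA) was the only motif with an interval below 0. It was at 0.856% of the pair summits and 2.13% of the single summits, a difference of −1.28 points (−1.82 to −0.336), although 15.6% of all summits held it. Pairs thus had more ETS and less AP-1 than single promoters. A scrambled ETS sequence (GACGCAG) was at 2.57% and 2.25%, and a scrambled AP-1 sequence (CTAGACT) at 0.611% and 0.339%, with intervals that included 0.

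For the other 10 motifs the interval of the difference included 0 within 50 bp of the summit. Within 100 bp it lay above 0 for NRF1 (0.0532 to 2.65) and the E-box (0.0761 to 4.03), and the ETS difference was 8.93 points (6.13 to 12.0). They were the CCAAT box (5.50% compared with 4.17%), SP/KLF (22.1% compared with 21.9%, or 18.9% when weighted to the GC content of the pair summits), the E-box (4.40% compared with 3.35%), the hypoxia response element (1.71% compared with 1.26%), the TATA box (TATAAA, 0.978% compared with 1.37%), NRF1 (CGCATGCG), YY1 (AAGATGGCG), ZBTB33/BANP (TCTCGCGAG), CREB/ATF (TGACGTCA) and CTCF (AGGTGGCA). Within the pairs, motifs differed with the place of the summit. The CCAAT box was at 39 of 505 summits between the TSSs (7.72%) and at 6 of 313 past a TSS (1.92%), a difference of 5.81 points (2.82 to 8.66). The difference was 13.1 points (7.41 to 18.4) for SP/KLF and 4.54 points (1.80 to 7.15) for the E-box. For ETS it was 2.10 points with an interval that included 0 (−2.43 to 6.26). In the sequences shown, THAP5/DNAJB9 held ETS, E-box and CCAAT letters and DOCK4/ZNF277 held ZNF143, ETS and SP/KLF letters over their whole stretch. The shorter stretch of TMEM60/PHTF2, cut at 60 bp to each side of the summit, held none of the motifs as searched. It does hold CCAAT on the minus strand with other flanking letters, as does that of DOCK4/ZNF277. The stretch of TMEM60/PHTF2 cannot be set against the longer ones. A match is only a run of letters and does not show that a factor was bound.

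**Figure D5:**
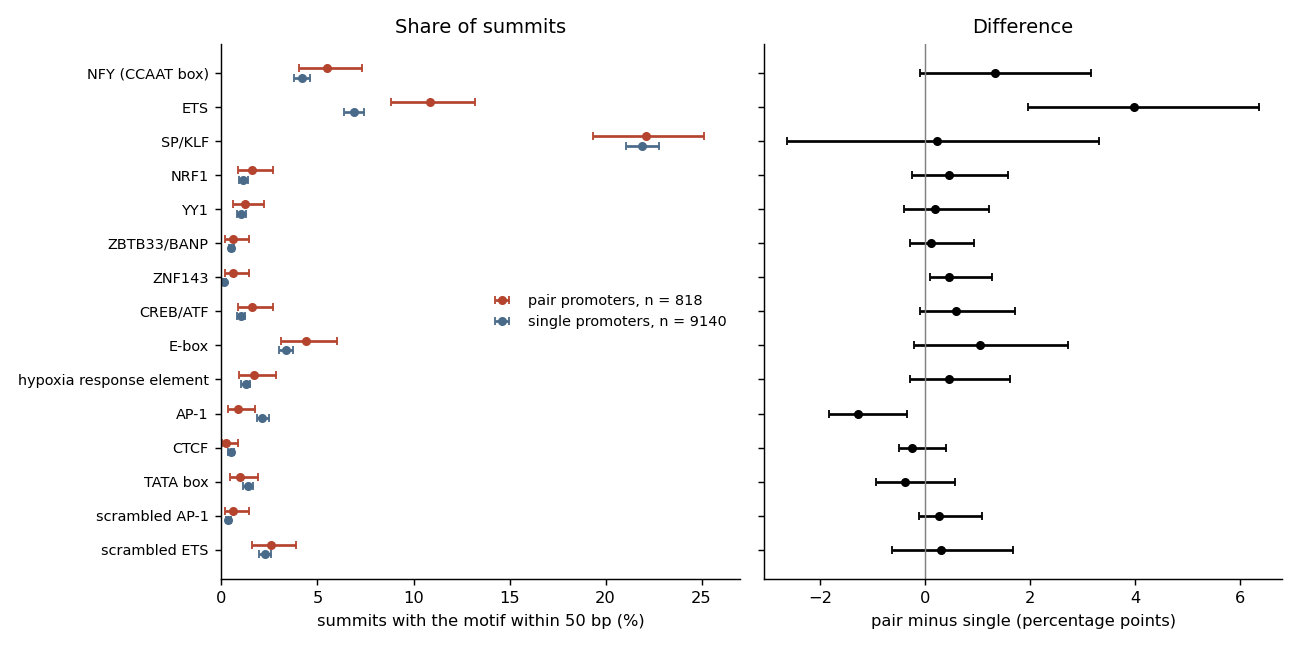
Left, the percentage of highest summits with each motif within 50 bp for pairs (red, n = 818) and single promoters (blue, n = 9140), with exact 95% intervals. Right, the difference in percentage points, pair minus single, with Newcombe 95% intervals. ETS and ZNF143 lie above 0, AP-1 lies below 0, and the intervals of the other 10 motifs and of both scrambled controls include 0.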

How the data were processed

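ATAC-seq peaks of 1 library of 786-O cells with an empty vector were analysed. The authors used fastp for trimming and Bowtie2 2.3.4.3 for alignment to hg38, removed mitochondrial reads, reads of low mapping quality and duplicates, and called peaks with MACS2 2.2.6 against a genome-wide background (versions from the submitters' processing notes). A Tn5 shift was not given in the sources used here. The deposited ratio is the fold of the summit pileup plus 1 over the background (0.941) plus 1, from which whole pileups of 9 to 300 were recovered. The deposited −log10 p-value, −log10 q-value and score (lowest, 52) follow from the same pileup. The pileup is the only depth known. The total number of reads is unknown.

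TSSs were those of canonical transcripts in GENCODE release 44. Shares carry exact Clopper-Pearson intervals, differences Newcombe intervals, medians order-statistic intervals and folds exact Poisson intervals, all at 95% and for counting error only. CpG and GC were read within 500 bp. Second copies were marked where minimap2 2.31 placed any of 261 alternative sequences on a primary chromosome over 10 kb or more at a divergence of 5% or less. Python 3.11.15, numpy 2.4.6, pandas 2.3.3, scipy 1.17.1, pysam 0.24.0 and matplotlib 3.10.9 were used. The functions were tested on simulated data.

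The pairs, the 9 gene lists and the motifs were chosen with earlier results of these data known. Named were, for each list, up to 4 pairs of highest fold and up to 4 without a summit, the 5 pairs of highest fold in all, the 3 of shortest and the 3 of longest TSS distance with a summit, and every textbook and kidney pair. Some genes that this rule or the marker list names are not reported here, and the counts include them. Alternatives were run for the TSS, the window, the score minimum, the TSS distance, GC content and second copies.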

Additional observations from a re-analysis of the deposited data

Results flagged for a closer look

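The X chromosome was outside the rule for the pairs. It held 27 divergent pairs by the same definition, and 22 of them had a summit in the pair window (81.5%; exact 95% interval, 61.9 to 93.7). The count was above 3, the level that a count of 0 allows, which is why it is given here. That is a low bar and marks nothing particular about the X chromosome. The median fold was 30.9 (range, 5.67 to 64.9). The highest were ENSG00000241489/EOLA1 at 64.9 and CETN2/NSDHL at 62.9. FANCB/MOSPD2, with a subunit of the Fanconi anaemia core complex, was at 47.4. CT45A10/SAGE1 and CSAG1/MAGEA12, which hold cancer-testis genes, and SATL1/ZNF711, TRPC5/RTL4 and TEX28/TKTL1 had no summit. The difference from the autosomal pairs was not tested.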

How the results depend on the processing

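No paired analysis was possible because the data are of 1 library. Leaving out a replicate was not possible for the same reason. Of 48 alternative values of the main results, 19 stayed within the 95% interval of the main value and 29 were counted as moved. The 29 include the number of motifs above single promoters, which has no interval and was judged by its ratio to the main value. Shares have no direction that could change, and the ratio of median folds stayed above 1. With peaks of a score above 200, the share with a summit was 87.5% at pair TSSs, 45.8% at single TSSs and 88.0% in the pair window, the ratio of median folds was 1.17, 1 peak covered both TSSs at 85.5% of pairs, and 0.522% of pairs had 2 or more summits. With a window of 500 bp, 84.7% of pair TSSs and 51.1% of single TSSs had a summit, and 0.940% of pairs had 2 or more. For pairs at most 300 bp apart, the summit lay between at 52.3%, 1 peak covered both at 92.6%, and 4.77% had 2 or more summits. With the TSS at the end of the gene record, the shares with a summit were 89.4% for pair TSSs, 51.5% for single TSSs and 90.0% for the pair window, the summit lay between at 44.3% and 1 peak covered both at 85.7%. Outside sequence with a second copy they were 94.8%, 58.3% and 95.4%, and 1 peak covered both at 91.8%. With overlap of the peak interval in place of the summit, 93.6% of pair TSSs and 58.5% of single TSSs were counted. The single share was 51.5% with no other TSS within 1 kb (ratio of median folds, 1.41), 56.7% in a window lengthened upstream by 233 bp, 63.2% when weighted by GC and 72.5% when weighted by CpG, the last chosen after the data were seen. Counting each locus once left 6 of 6 values within their intervals. Within 100 bp of the summit, 4 motifs in place of 2 were above single promoters, the ETS difference was 8.93 points and the AP-1 difference −2.12 points. The causes were not tested. A summit of low pileup has a wide counting interval, and without a replicate the spread between cultures is unknown.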
